A study of Mus musculus with 9 samples.

Results

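The genes described are the cytosolic translation initiation factors (Eif1 to Eif6 symbols) and elongation factors (Eef1 and Eef2 symbols) of the mouse, with the subunits, kinases, inhibitors and methyltransferases that carry the same names. Of 68 protein-coding genes whose symbols match this rule, 2 on chromosome X, 1 on chromosome Y and the interferon-induced kinase gene Eif2ak2 were left out, which gave 64 members among 21965 counted genes. All 64 were among the genes counted, and they were placed in 13 roles. A filter on low counts left 51 members for testing, and 13 were not tested. Tested members held at least 111 reads over the 9 libraries and those not tested at most 107.

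Translation of an mRNA begins when eIF2 carries initiator tRNA to the small ribosomal subunit, where eIF1, eIF1A and the large scaffold eIF3 also bind. The eIF4F complex, made of the cap-binding protein eIF4E, the RNA helicase eIF4A and the scaffold eIF4G, brings the mRNA, and eIF5 and eIF5B then let the large subunit join. During elongation eEF1A delivers aminoacyl-tRNA, the other eEF1 subunits reload it with GTP, and eEF2 moves the ribosome along. Phosphorylation of eIF2 by stress kinases and sequestering of eIF4E by 4E-binding proteins under low mTOR activity are the classic brakes on initiation, and lymphocytes are known to release them when they are activated.

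RNA was sequenced from spleens of mice aged 16 weeks, with 3 mice in each of 3 groups. Lupus-prone NZB x NZW F1 hybrids (BWF1) gave a female and a male group, and BALB/c, a strain without lupus, gave females only. Sex and strain therefore cannot be told apart in the comparison of BWF1 males with BALB/c females. The labels name no transgene and no treatment in any group. The series text speaks of whole splenocytes, but each sample's label gives sorted macrophages, positive for CD11b and F4/80. In the main fit, the p-values set differences between group means against the spread among samples within groups. That spread was estimated for all 3 groups together.

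Gene counts per library ranged from 458608 to 4305003, of which 42.3% to 76.6% lay in Lars2, and the members held 4876 to 59285 reads per library, or 2.41% to 3.30% of the counts outside Lars2. The tested members were better counted than most genes, with a median of 825 reads over the 9 libraries against 309 for all tested genes. The defining markers of such a sort were low. Itgam, which encodes CD11b, had 1 read over the BWF1 female libraries, 37 over the male and 22 over the BALB/c libraries, and Adgre1, which encodes F4/80, stood at 14.8 ± 2.68 CPM (mean ± SD, n = 3), 15.3 ± 4.96 CPM and 7.27 ± 1.78 CPM in the same order. CPM stands here for reads scaled to a common library size with TMM factors, which align libraries by the bulk of their genes. In such bulk samples, fewer cells of a type and less RNA per cell cannot be told apart.

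Per kilobase of exon, Eef1a1, the delivery factor eEF1A, was the most abundant member at 1582 CPM per kb averaged over the groups, followed by the translocase gene Eef2 at 700.1 CPM per kb. Together these genes made up 47.6% to 56.7% of the members' summed CPM in each library. Next came Eef1b2 at 135, Eif4a1 at 109, Eif3h at 102 and Eif4a2 at 101 CPM per kb. The cap-binding gene Eif4e was far lower at 3.10 CPM per kb, and the eIF2 subunits Eif2s1 and Eif2s2 stood at 5.63 and 3.95 CPM per kb. In all, 22 members lay above 20 CPM per kb, 37 between 1 and 20 CPM per kb and 5 below 1 CPM per kb. Eef1a2, the eEF1A form of neurons and muscle, had 1 read in all libraries and Eif4e1b, the germ cell form of eIF4E, had 0, with a limit of 3 reads per library on a count of 0 (0.697 to 6.54 CPM of the raw library totals, counting error only).

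**Figure D1:**
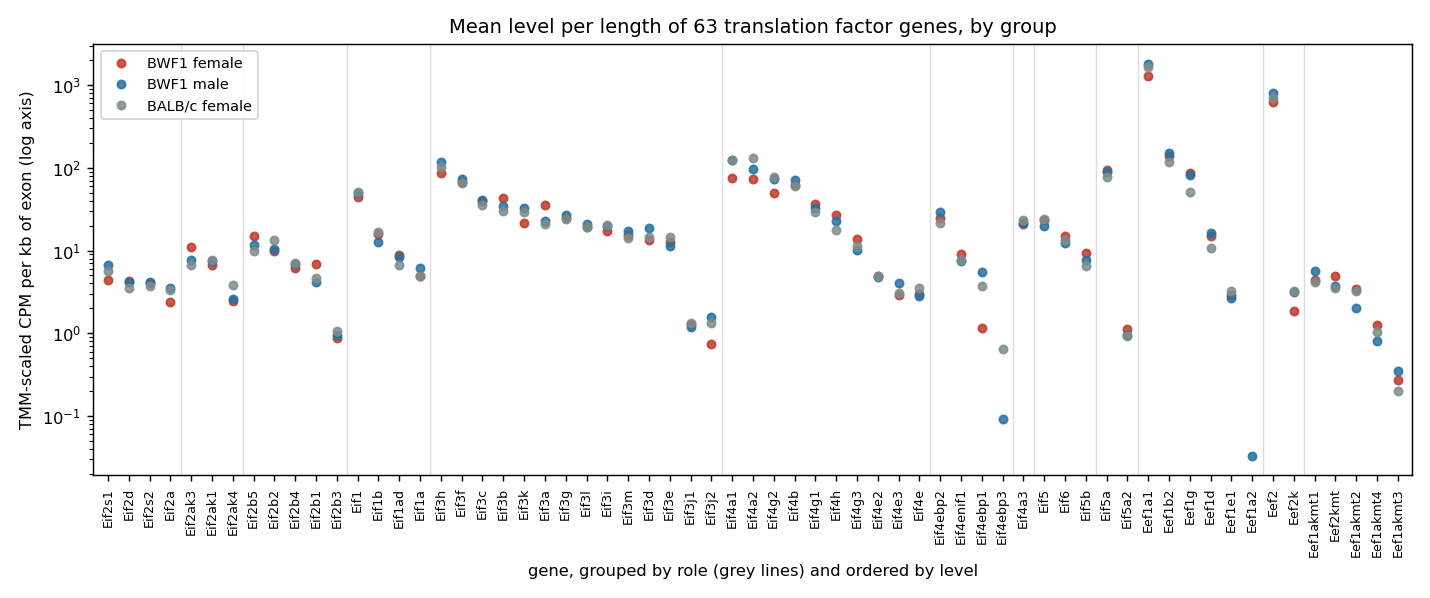
Mean TMM-scaled CPM per kb of exon (log axis) in each group for the 63 members with at least 1 read, grouped by role. Means of 0, as for Eif4ebp3 in BWF1 females, are not drawn. Eef1a1 and Eef2 stand above all others, and within most genes the 3 groups lie close together.

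BWF1 females differed from BWF1 males in 2 of the 51 tested members. Eif3a, the largest subunit of eIF3, was 1.57-fold higher in females, and Eif4a1, the main helicase of eIF4F, was 1.64-fold lower. Of all 7719 tested genes, 169 were called (2.19%; 74 or 0.959% higher and 95 or 1.23% lower), at an adjusted p under 0.05 by the edgeR quasi-likelihood test. The median log2 fold change of the tested members was -0.086, against 0.00064 over all tested genes, and 22 of 51 were above 0. At an unadjusted p under 0.05 stood 11 members (21.6%), against 16.4% of all tested genes. In 14 members (27.5%) the groups did not overlap, against 18.7% of all tested genes. Of these, 6 were above the males (11.8%, against 9.04% of all tested genes) and 8 below (15.7%, against 9.68%).

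BWF1 females differed from BALB/c females in 3 of 51 tested members. Eif3a was 1.74-fold and Eef1g, the gamma subunit of eEF1, 1.69-fold higher in BWF1 females, and Eif4a1 was 1.65-fold lower. Among all tested genes 295 were called (3.82%; 138 or 1.79% higher and 157 or 2.03% lower). The members' median log2 fold change was 0.0056, against -0.0024 for all tested genes, and 26 were above 0. An unadjusted p under 0.05 was reached by 14 members (27.5%) and by 16.9% of all tested genes. The groups did not overlap in 20 members (39.2%), against 21.2% of all tested genes. In 13 (25.5%, against 10.3%) the BWF1 females lay above and in 7 (13.7%, against 10.9%) below.

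BWF1 males differed from BALB/c females in 1 of 51 tested members, Eef1g, which was 1.59-fold higher in the males, and 0 members were called lower, by edgeR, DESeq2 or limma-voom. Among all tested genes 272 were called (3.52%; 129 or 1.67% higher and 143 or 1.85% lower). The members' median log2 fold change was 0.15, against -0.0028 for all tested genes, and 30 were above 0. Only 4 members (7.84%) had an unadjusted p under 0.05, against 16.3% of all tested genes, and 8 (15.7%) had groups that did not overlap, against 23.5%. The males lay above in 7 (13.7%, against 11.6%) and below in 1, Eif5 (1.96%, against 11.9%). A difference under 0.5 on the log2 scale was measured in 42 tested members for females against males, in 39 between the female groups and in 48 for males against BALB/c females. These make 82.4%, 76.5% and 94.1% of the tested members, where all tested genes gave 76.0%, 75.5% and 79.5%. The median SE was 0.213, 0.211 and 0.206 for the members, against 0.290, 0.287 and 0.269 for all tested genes. The shares of members and of all tested genes are therefore not at like precision. The 3 comparisons share libraries with each other, so their values are given side by side and not as separate evidence. With library sizes alone and no TMM factors (the lowest was 0.530, for BWF1 male 1), all 6 calls of members were lost. The log2 fold changes were then 0.86 (Eif3a) and -0.40 (Eif4a1) for females against males, and 0.52 (Eif3a), -1.002 (Eif4a1) and 0.48 (Eef1g) between the female groups. For males against BALB/c females that of Eef1g was 0.17. The split of all called genes into higher and lower then became 45 and 14 for females against males, 23 and 107 for BWF1 against BALB/c females, and 26 and 248 for males against BALB/c females.

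**Figure D2:**
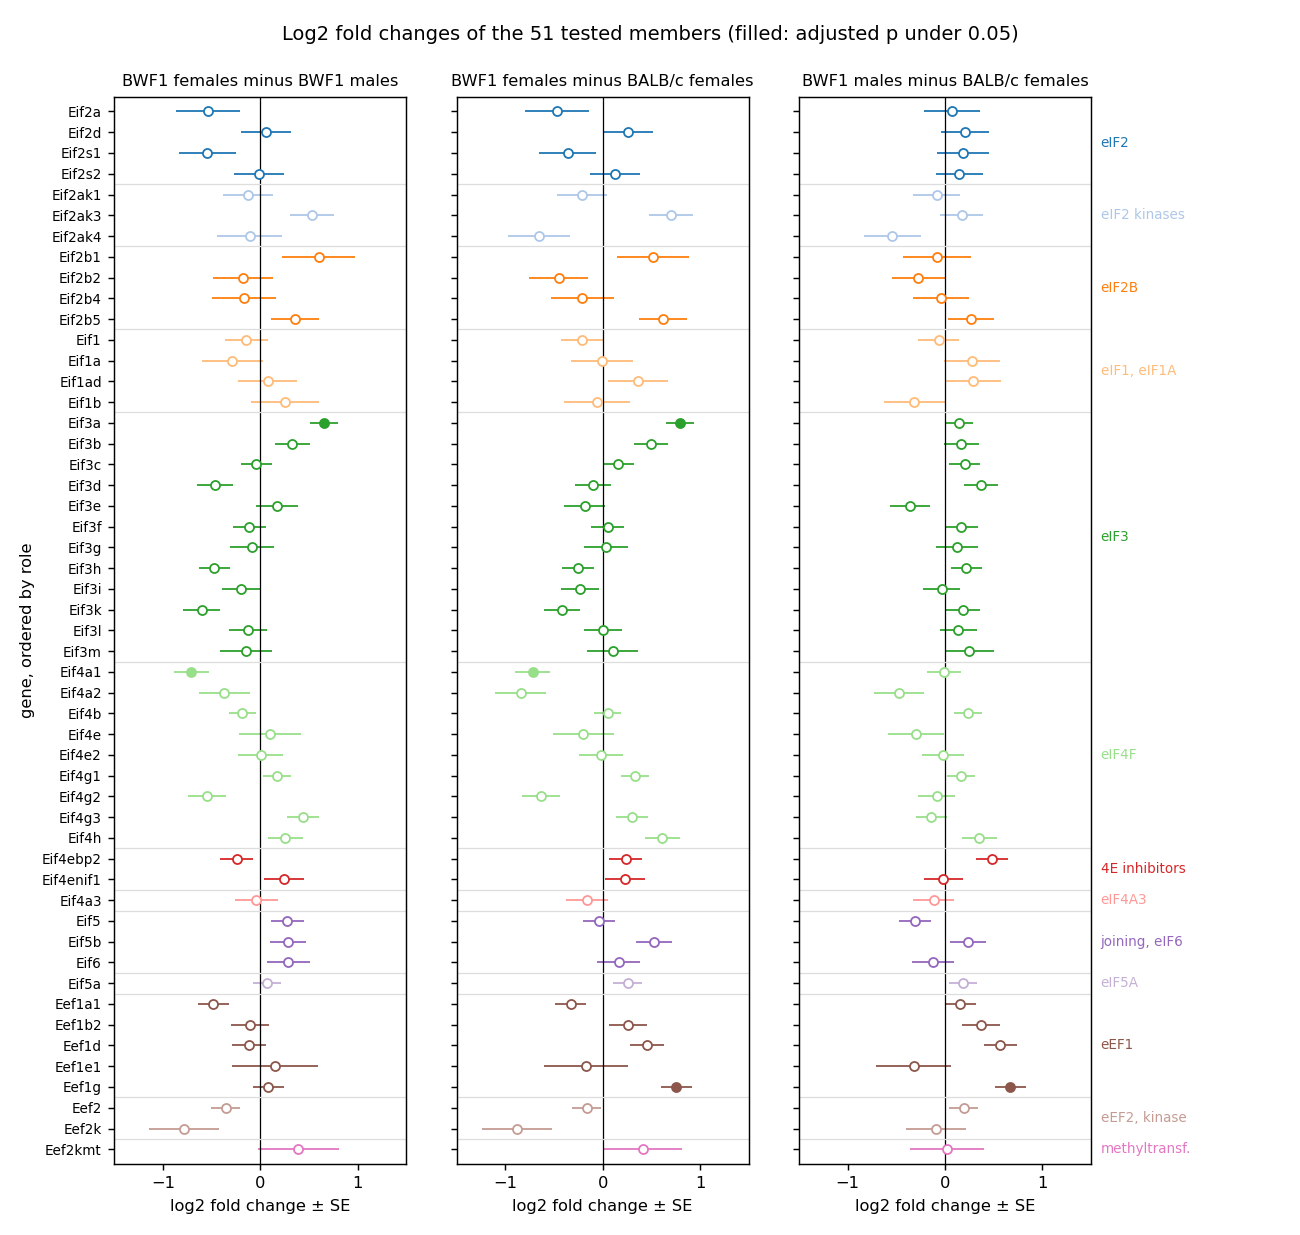
Log2 fold change ± SE of the 51 tested members in the 3 comparisons, ordered by role, with called members filled. Eif3a and Eif4a1 are filled in both comparisons of BWF1 females, and Eef1g in both comparisons with BALB/c.

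The eIF3 complex is the largest initiation factor and holds the small ribosomal subunit ready for mRNA. Its core subunit gene Eif3a (ENSMUSG00000024991, mm10 chromosome 19, 60761117 to 60790658, minus strand) stood at 313, 297 and 333 CPM in BWF1 females, 209.9, 195 and 196 CPM in BWF1 males and 196, 172 and 173 CPM in BALB/c females. Every BWF1 female library lay above all 6 others, and the BWF1 males and BALB/c females overlapped. In reads, this rested on 142, 184 and 162 in BWF1 females, 107, 190 and 940 in males and 273, 262 and 175 in BALB/c females, and no 50-base stretch of its exons occurred in another gene. The group means were 314 ± 17.9 CPM (SD, n = 3), 200.1 ± 8.44 CPM and 181 ± 13.5 CPM. The log2 fold change was 0.65 ± 0.14 (SE) for females against males (adjusted p = 0.0131) and 0.80 ± 0.14 for BWF1 against BALB/c females (adjusted p = 0.00108). Between BWF1 males and BALB/c females it was 0.15 ± 0.14 (adjusted p = 0.680). The call against males ended without BWF1 male 2 (adjusted p = 0.0574) or BWF1 male 3 (adjusted p = 0.0935), with log2 fold changes of 0.64 and 0.63. With the tag that file names carry (ORIG or RL, with no meaning given in the labels) as a covariate, it was 0.65 (adjusted p = 0.0143) against males and 0.74 (adjusted p = 0.0220) against BALB/c females.

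**Figure D3:**
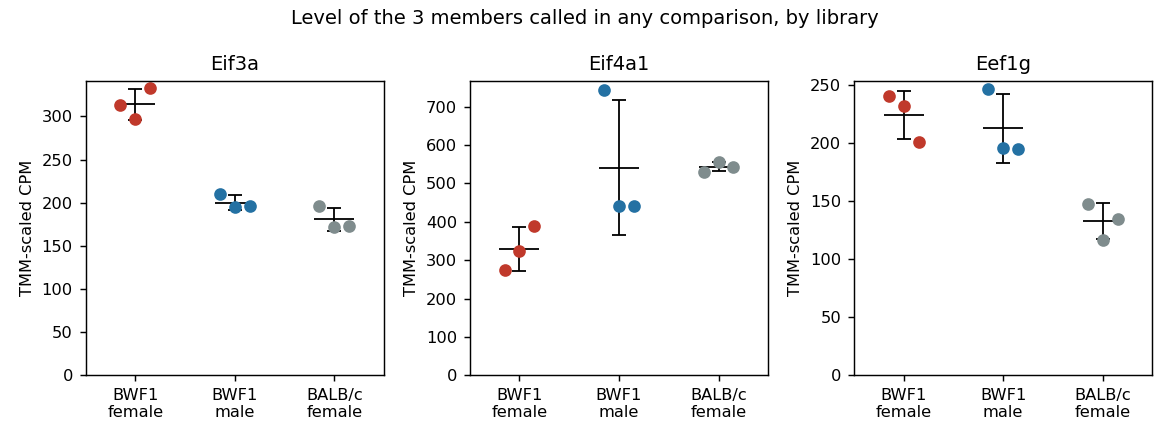
TMM-scaled CPM in each library (points) with mean ± SD (bars, n = 3) for the 3 members called in any comparison. Eif3a is highest in the 3 BWF1 female libraries, Eif4a1 is lowest there, and Eef1g is lowest in the 3 BALB/c libraries; the male mean of Eif4a1 is drawn up by BWF1 male 1.

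None of the other 11 tested eIF3 genes was called, by edgeR, DESeq2 or limma-voom. For females against males the 12 tested subunits had a median log2 fold change of -0.12, with 3 above 0 (Eif3a, Eif3b and Eif3e). Against BALB/c females the median was 0.021, and for males against BALB/c females 0.17. Eif3k, a small peripheral subunit, lay at the other end of the complex, at 61.8, 61.3 and 51.3 CPM in BWF1 females, 104, 72.8 and 90.0 CPM in BWF1 males and 76.2, 82.1 and 75.3 CPM in BALB/c females. All 3 BWF1 female libraries were below the other 6, with a log2 fold change of -0.61 ± 0.19 against males (adjusted p = 0.0909) and -0.42 ± 0.19 against BALB/c females (adjusted p = 0.241). Eif3h, the subunit gene with the highest level per length, stood at 157, 127 and 129 CPM in BWF1 females, 202, 203 and 169 CPM in BWF1 males and 178, 140.0 and 174 CPM in BALB/c females. Its female libraries lay below all male libraries and overlapped BALB/c, with a log2 fold change of -0.47 ± 0.16 against males (adjusted p = 0.128). Eif3b, a core subunit that pairs with eIF3a, was at 143, 142 and 144 CPM in BWF1 females, 145, 96.4 and 103 CPM in BWF1 males and 81.9, 109 and 113 CPM in BALB/c females. BWF1 females were above BALB/c females in every library, whereas BWF1 male 1 lay above the BWF1 females (0.50 ± 0.18, adjusted p = 0.134 against BALB/c). Eif3d, a subunit that can itself bind the mRNA cap, gave -0.47 ± 0.18 for females against males (adjusted p = 0.188) and 0.37 ± 0.18 for males against BALB/c females (adjusted p = 0.300), the latter turning to -0.10 with library sizes alone; 37.2% of its 50-base exon windows also occur in the gene Gm17638. Eif3b, Eif3d and Eif3k were picked out after their values had been seen. The remaining tested subunits (Eif3c, Eif3e, Eif3f, Eif3g, Eif3i, Eif3l and Eif3m) had adjusted p-values above 0.05 in every comparison. Eif3j1 and Eif3j2, which share much of their sequence (50.9% and 91.8% of windows found in other genes), had 84 and 33 reads in all and were not tested.

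The ratio of Eif3a to Eif3k reads within a library does not depend on the scaling between libraries. Its log2 value was 2.34, 2.28 and 2.70 in BWF1 females, 1.01, 1.42 and 1.12 in males and 1.36, 1.07 and 1.20 in BALB/c females. The BWF1 females lay above all other libraries, and the males and BALB/c females overlapped. This pair, and those below, were picked after their values had been seen, so they are given as descriptions; the exact permutation test of 3 against 3 cannot go below p = 0.1, which it reached for females against males and for BWF1 against BALB/c females.

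The 250 bases before each RefSeq start (GRCm38.p6) were searched on both strands for the core letters of 4 common promoter motifs. Starts were available for 48 members, some of which were not tested for expression, with 63 windows in all. A gene was counted if any of its windows matched, so genes with several starts had more chances to match. CCGGAAG, bound by ETS factors such as GABPA, was found in 11 members (22.9%), against 18.4% of the tested genes and 7.83% of all genes with a promoter in the table. Among eIF4F genes it was present in 1 of 8, and among eIF3 genes in 5 of 10. The windows are shown because their matches fall at similar distances from the RefSeq start, 34 to 70 bases before it, in subunit genes that were not called. These distances depend on the start used. By the gene bounds in GENCODE M21, parts of the Eif3g, Eif3l and Eif3m windows lie inside those genes. So does most of the Eif3c window that starts at 126566383, with its match. Capitals mark CCGGAAG or its reverse complement CTTCCGG.
Eif3c chr7:126566417-126566446 (minus strand): cattctttggtgCTTCCGGgaagtgacgcc
Eif3c chr7:126566383-126566412 (minus strand): caaccttttcctCTTCCGGcgtcgtgcctg
Eif3d chr15:77970877-77970906 (minus strand): agctgtgacacaCTTCCGGttgtgtctcac
Eif3g chr9:20898617-20898646 (minus strand): gcggccgcggcaCCGGAAGcctcttctact
Eif3l chr15:79075176-79075205 (plus strand): ggctgggcgggaCTTCCGGtccggccaagc
Eif3m chr2:105017065-105017094 (minus strand): tctgtggctgacCCGGAAGcggttgtgcgt
Eif3a had no such match in its own window, shown next because it was the called subunit. Capitals there mark CGTCA, which is TGACG (the core of cAMP response elements) read on the other strand, and the GC box GGGCGG.
Eif3a chr19:60790694-60790943 (minus strand): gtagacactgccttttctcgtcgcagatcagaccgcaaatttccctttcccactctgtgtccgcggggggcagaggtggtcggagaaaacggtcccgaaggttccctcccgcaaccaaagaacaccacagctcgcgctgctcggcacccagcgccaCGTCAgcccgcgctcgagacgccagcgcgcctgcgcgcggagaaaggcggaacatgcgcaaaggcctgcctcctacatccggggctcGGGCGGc
TGACG was present in 23 members with a promoter (47.9%; 33.4% of tested genes) and GGGCGG in 35 (72.9%; 67.0% of tested genes). By complex, TGACG was in 4 of 10 eIF3 and 4 of 8 eIF4F genes, and GGGCGG in 6 of 10 and 6 of 8. These matches describe the letters in the windows only, and in 3 members matches to different motifs overlapped.

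Of the 9 tested eIF4F genes, edgeR called 1, Eif4a1, which was lower in BWF1 females than in both other groups. Of all tested genes, 1.23% were called lower against males and 2.03% against BALB/c females. The medians of the role were 0.0038, -0.016 and -0.02 for females against males, BWF1 against BALB/c females and males against BALB/c females. Eif4a1 (ENSMUSG00000059796, mm10 chromosome 11, 69666936 to 69672423, minus strand) stood at 276, 324 and 390.1 CPM in BWF1 females, 743, 441 and 440.2 CPM in BWF1 males and 531, 555 and 544 CPM in BALB/c females. The 3 BWF1 female libraries were the lowest of the 9, and BWF1 male 1 was far above the other males. Its log2 fold change was -0.71 ± 0.18 against males (adjusted p = 0.0334) and -0.72 ± 0.18 against BALB/c females (adjusted p = 0.0177), with -0.0095 ± 0.17 between males and BALB/c females (adjusted p = 0.990). The group means were 330.0 ± 57.4, 541 ± 175 and 544 ± 12.1 CPM (SD, n = 3) in the order just given.

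Both Eif4a1 calls were lost when single libraries were left out. Without BWF1 male 1 the log2 fold change against males was -0.41 (adjusted p = 0.164). It also missed the threshold without BWF1 female 1 (-0.61, adjusted p = 0.128) or BWF1 female 2 (-0.70, adjusted p = 0.0850), and when only those 2 groups were fitted (-0.71, adjusted p = 0.0588). The call against BALB/c females ended without BWF1 female 1 (-0.60, adjusted p = 0.119), BWF1 female 2 (-0.70, adjusted p = 0.0674), BALB/c female 2 (-0.71, adjusted p = 0.0606) or BALB/c female 3 (-0.71, adjusted p = 0.0626). With the file-name tag as a covariate both calls held, at -0.70 (adjusted p = 0.0284) and -0.87 (adjusted p = 0.0275). The exons of Eif4a1 hold 2 small nucleolar RNA genes and those of Eif4a2 hold 4, and 28.4% of the 50-base windows of Eif4a1 occur in other genes, most in its pseudogene Eif4a-ps4, so reads from those windows cannot be given to 1 gene.

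Eif4a2, Eif4g2, Eif4h, Eif4g1 and Eif4g3 are described because of values already seen. Eif4a2, the second eIF4A helicase, stood at 449.9, 331 and 404 CPM in BWF1 females, 743, 450.1 and 344 CPM in BWF1 males and 1157, 480.4 and 486 CPM in BALB/c females. BALB/c female 1 was far above all other libraries, the BWF1 females lay below all BALB/c libraries, and they overlapped the males (-0.84 ± 0.26 against BALB/c, adjusted p = 0.0716). Without BALB/c female 1 that value was -0.29 (adjusted p = 0.590). Eif4g2, which supports initiation without the cap, showed 494, 537 and 487 CPM in BWF1 females, 989, 690.0 and 549 CPM in BWF1 males and 1059, 643 and 653 CPM in BALB/c females. Again the female libraries were the lowest 3 of 9, and BWF1 male 1 and BALB/c female 1 the highest, with -0.55 ± 0.19 against males (adjusted p = 0.134) and -0.63 ± 0.19 against BALB/c females (adjusted p = 0.0648). The values were -0.28 against males without BWF1 male 1 (adjusted p = 0.486) and -0.36 against BALB/c females without BALB/c female 1 (adjusted p = 0.379).

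Eif4h, which stimulates the eIF4A helicase, stood at 148, 134 and 168 CPM in BWF1 females, 159, 100.5 and 119 CPM in BWF1 males and 84.8, 104 and 105 CPM in BALB/c females. The BWF1 females lay above all BALB/c libraries and overlapped the males, with 0.61 ± 0.18 against BALB/c females (adjusted p = 0.0543). It passed in 7 of 20 alternatives (adjusted p = 0.0224 to 0.0481), limma-voom among them, but not with DESeq2 (adjusted p = 0.116), and with the file-name tag the value was 0.38 (adjusted p = 0.462). The scaffold gene Eif4g1 stood at 298, 245 and 257 CPM in BWF1 females, 228, 237 and 247 CPM in BWF1 males and 199.8, 225 and 211 CPM in BALB/c females. Its BWF1 female libraries were above those of BALB/c and overlapped the males at their lower end (0.33 ± 0.14, adjusted p = 0.236). Its paralog Eif4g3 was at 150.0, 155 and 158 CPM in BWF1 females, 88.3, 127 and 124 CPM in BWF1 males and 116, 138 and 122 CPM in BALB/c females. BWF1 females were above all 6 other libraries, though the difference did not pass (0.44 ± 0.17 against males, adjusted p = 0.175; 0.30 ± 0.17 against BALB/c, adjusted p = 0.376). Eif4b, another helicase cofactor, gave -0.18 ± 0.14, 0.052 ± 0.14 and 0.24 ± 0.14 in the 3 comparisons, in the order females against males, BWF1 against BALB/c females and males against BALB/c females. Within libraries, the log2 ratio of Eif3a to Eif4a1 reads was 0.18, -0.13 and -0.23 in BWF1 females, -1.82, -1.18 and -1.17 in males and -1.44, -1.69 and -1.65 in BALB/c females. The BWF1 females were above all 6 other libraries, which overlapped (exact permutation p = 0.1 in both comparisons of BWF1 females). The cap-binding genes Eif4e and Eif4e2 stayed within -0.29 and 0.10 in log2 fold change, none passing the test, and Eif4e3 (107 reads) and Eif4e1b were not tested.

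**Figure D4:**
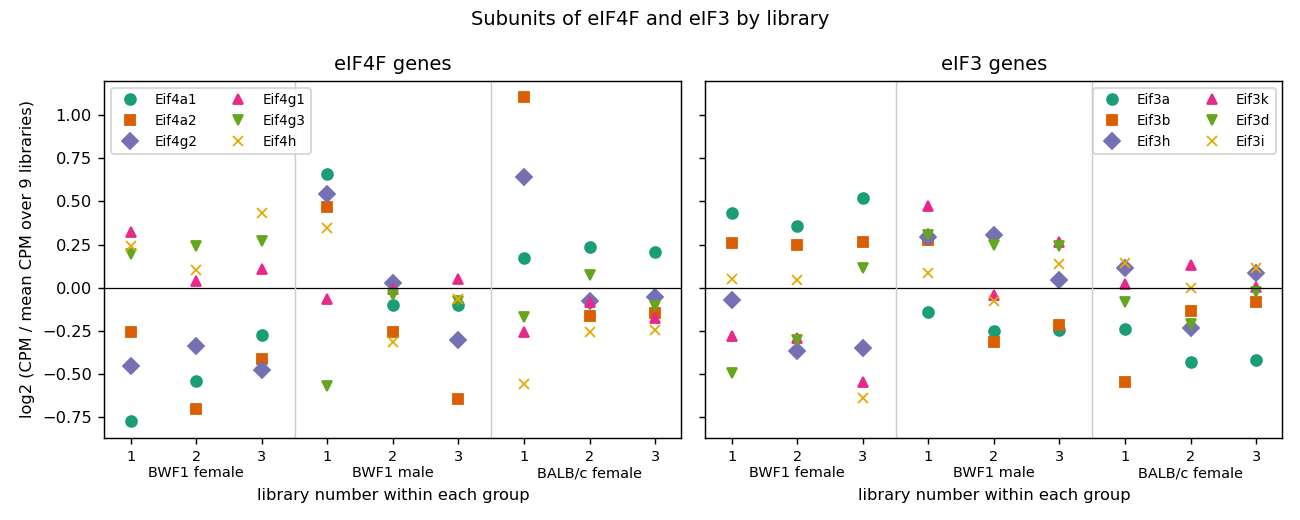
Log2 of CPM over the mean CPM of the 9 libraries for 6 eIF4F genes (left) and 6 eIF3 genes (right) in each library. In the BWF1 females Eif4a1, Eif4a2 and Eif4g2 lie below 0 and Eif4g1, Eif4g3 and Eif4h above it; the highest Eif4a1 value is that of BWF1 male 1, and the highest Eif4a2 and Eif4g2 values are those of BALB/c female 1.

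The E-box CACGTG, bound by MYC, MAX and USF proteins among others, lay in the 250 bases before a RefSeq start in 12 of the 48 members (25%), against 10.8% of tested genes and 6.86% of all genes. Of the 10 eIF3 genes with a promoter in the table, 2 held it, and of the 8 eIF4F genes 4 did. The eIF4F windows are shown with the E-box in capitals because Eif4a1, the called gene of the complex, is among them. By the gene bounds in GENCODE M21, the Eif4e and Eif4g1 windows lie inside those genes, and a small part of the Eif4h window lies inside its gene.
Eif4a1 chr11:69672595-69672624 (minus strand): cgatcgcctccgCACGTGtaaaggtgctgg
Eif4e chr3:138527028-138527057 (plus strand): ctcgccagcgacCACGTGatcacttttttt
Eif4e chr3:138527192-138527221 (plus strand): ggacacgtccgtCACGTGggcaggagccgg
Eif4g1 chr16:20672661-20672690 (plus strand): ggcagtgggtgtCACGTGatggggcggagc
Eif4h chr5:134639488-134639517 (minus strand): cggccgccgcacCACGTGggccgcagagcg
The whole window of Eif4a1, the called gene, also holds GGGCGG and, next to the start, TGACG on the other strand, all in capitals.
Eif4a1 chr11:69672424-69672673 (minus strand): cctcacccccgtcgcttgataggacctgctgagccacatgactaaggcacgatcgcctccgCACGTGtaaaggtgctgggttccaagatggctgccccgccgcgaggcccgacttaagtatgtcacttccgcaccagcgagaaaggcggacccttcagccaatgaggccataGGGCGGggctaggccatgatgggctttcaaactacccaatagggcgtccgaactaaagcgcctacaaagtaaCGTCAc

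For the inhibitors of eIF4E only RNA was measured, and not protein or its phosphorylation. Eif4ebp2, the 4E-binding protein gene with the highest level here, stood at 130.1, 136 and 168 CPM in BWF1 females, 159, 168 and 186 CPM in BWF1 males and 97.7, 127 and 144 CPM in BALB/c females. All BWF1 male libraries lay above all BALB/c libraries and the BWF1 females overlapped both (0.48 ± 0.17 for males against BALB/c, adjusted p = 0.118). Eif4ebp1, the best known mTORC1 target of the family, was near the limit of counting and was set aside by the filter. It had 2, 2 and 0 reads in BWF1 females, 8, 9 and 54 in males and 10, 10 and 11 in BALB/c females, or 4.41, 3.23 and 0 CPM in BWF1 females, 15.7, 9.23 and 11.2 CPM in BWF1 males and 7.19, 6.57 and 10.9 CPM in BALB/c females. Without the filter its log2 fold change for females against males was -2.17 ± 0.60 (adjusted p = 0.0210), and DESeq2 gave it no adjusted p. In 8 other fits where it passed the filter it was not called, with -2.11 and adjusted p = 0.0693 when Lars2 was left out, and -2.65 to -1.61 and adjusted p = 0.0802 to 0.203 when single libraries were. Eif4ebp3 had 3 reads in all. Eif4enif1, the eIF4E transporter gene, gave 0.25, 0.23 and -0.017 in the 3 comparisons, none passing. limma-voom, though neither edgeR nor DESeq2, called Eif4ebp2 higher in males than in BALB/c females (adjusted p = 0.0212). Eif4a3, a helicase of the exon junction complex and not of eIF4F, stood at 48.5, 45.2 and 41.1 CPM in BWF1 females, 43.2, 45.1 and 49.3 CPM in BWF1 males and 62.5, 48.6 and 38.7 CPM in BALB/c females. Its groups overlapped throughout, and the log2 fold changes lay between -0.16 and -0.04.

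Of 14 tested genes of mTORC1 and MNK control, 0 were called in any comparison by edgeR, DESeq2 or limma-voom, with 1, 0 and 3 at an unadjusted p under 0.05 for females against males, BWF1 against BALB/c females and males against BALB/c females. Of all tested genes, 16.4%, 16.9% and 16.3% had such a p in the same order. Mknk2, a kinase of eIF4E, had the lowest p for females against males (-0.38 ± 0.15, adjusted p = 0.184), and Rps6kb2, an S6 kinase, in the other comparisons (-0.87 ± 0.46, adjusted p = 0.343; -1.04 ± 0.39, adjusted p = 0.163). Their medians were 0.074, 0.12 and 0.0026 on the log2 scale. Of all tested genes, 3.52% were called for males against BALB/c females (1.67% higher). Of 17 partners at the cap and the poly(A) tail, 1 was called in that comparison, which was Cyfip1, whose product can bind eIF4E. It stood at 41.9, 67.8 and 41.1 CPM in BWF1 females, 56.9, 58.4 and 45.0 CPM in BWF1 males and 29.5, 34.2 and 26.8 CPM in BALB/c females. All BALB/c libraries lay below all 6 BWF1 libraries, with 0.81 ± 0.22 for males against BALB/c (adjusted p = 0.0432) and 0.74 ± 0.23 for BWF1 against BALB/c females (adjusted p = 0.0755). The call ended without any 1 library of the males or BALB/c females (0.73 to 0.94, adjusted p = 0.0554 to 0.153), with DESeq2 (0.78, adjusted p = 0.166) and with library sizes alone, where the value was 0.30 (adjusted p = 0.611). In the other comparisons edgeR, DESeq2 and limma-voom called 0 partners. An unadjusted p under 0.05 was reached by 2, 5 and 2 partners in the 3 comparisons, and the medians of the list were -0.068, 0.033 and 0.19.

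The eIF2 genes, which deliver initiator tRNA, held 0 called members of 4 tested in each comparison, with 0 at an unadjusted p under 0.05. Across eIF2, its kinases, eIF2B, eIF1 and eIF1A, subunit joining and eIF5A, edgeR, DESeq2 and limma-voom called 0 members in any comparison. Eif2s1, the alpha subunit on which stress kinases act, stood at 17.6, 27.4 and 20.5 CPM in BWF1 females, 43.2, 31.8 and 25.4 CPM in BWF1 males and 38.1, 23.0 and 23.8 CPM in BALB/c females. The groups overlapped, with -0.55 ± 0.29 for females against males (adjusted p = 0.362). Eif2s2 gave -0.017, 0.13 and 0.15, and the alternative delivery factors Eif2a and Eif2d gave -0.54 and 0.06 for females against males, none passing. Among the eIF2 kinases, Eif2ak3, which encodes PERK of the endoplasmic reticulum, stood at 52.9, 56.5 and 90.3 CPM in BWF1 females, 45.1, 52.3 and 41.4 CPM in BWF1 males and 42.4, 46.0 and 33.7 CPM in BALB/c females. The BWF1 females lay above all 6 other libraries, by a narrow margin in BWF1 female 1, and neither difference passed (0.53 ± 0.22 against males, adjusted p = 0.226; 0.70 ± 0.22 against BALB/c, adjusted p = 0.0818). Without BWF1 female 3, the highest library, the values were 0.25 (adjusted p = 0.688) and 0.43 (adjusted p = 0.357). Eif2ak1, the heme-regulated kinase HRI, and Eif2ak4, the amino acid sensor GCN2, had log2 fold changes of -0.13 and -0.11 for females against males, and of -0.21 and -0.65 for BWF1 against BALB/c females. For the exchange factor eIF2B, which reloads eIF2 with GTP, Eif2b5 (its catalytic subunit) stood at 35.3, 40.3 and 41.1 CPM in BWF1 females, 25.5, 36.9 and 28.5 CPM in BWF1 males and 21.6, 25.0 and 29.7 CPM in BALB/c females. The BWF1 females were above all BALB/c libraries and overlapped the males (0.62 ± 0.24, adjusted p = 0.180). The other tested subunits ranged from -0.18 (Eif2b2) to 0.60 (Eif2b1) for females against males, and Eif2b3, with 81 reads, was not tested.

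Genes listed for the integrated stress response, which follows eIF2 phosphorylation, were called in small numbers and in both directions. The list of 17 genes, of which 12 were tested, also holds regulators such as the kinase gene Eif2ak2. Atf4 and Ddit3 were not called by edgeR in any comparison. Of 12 tested genes, 0 rose and 1 fell for females against males, 0 rose and 2 fell for BWF1 against BALB/c females, and 1 rose and 1 fell for males against BALB/c females, where 2.19%, 3.82% and 3.52% of all tested genes were called. DESeq2 called 1, 1 and 1 of the list, all lower, and limma-voom 1 and 1 lower in the first comparisons and 2 higher and 2 lower in the last, adding Atf4 and Ddit4. Ppp1r15a, the phosphatase subunit GADD34 that undoes eIF2 phosphorylation, stood at 39.7, 35.5 and 37.0 CPM in BWF1 females, 54.9, 34.9 and 26.9 CPM in BWF1 males and 124, 192 and 149.7 CPM in BALB/c females. All BALB/c libraries were above all BWF1 libraries, with -2.05 ± 0.23 for BWF1 against BALB/c females (adjusted p = 2.73e-06) and -2.05 ± 0.22 for males against BALB/c females (adjusted p = 1.08e-06), and both calls held in every alternative fit that was run. Slc3a2, part of amino acid transporters, was lower in BWF1 females than in males (-0.82 ± 0.18, adjusted p = 0.0148) and higher in males than in BALB/c females (0.69 ± 0.18, adjusted p = 0.0256). Atf3, a stress transcription factor, was lower in BWF1 than in BALB/c females (-2.21 ± 0.59, adjusted p = 0.0300), at no more than 20 CPM in any library. The Slc3a2 call against males ended without BWF1 male 2 (-0.72, adjusted p = 0.0843) and with library sizes alone (-0.63, adjusted p = 0.821). That between males and BALB/c females ended without BWF1 male 2 (0.59, adjusted p = 0.133) or any 1 BALB/c library (0.58 to 0.77, adjusted p = 0.0624 to 0.143). It also ended with DESeq2 (0.68, adjusted p = 0.0773), with the file-name tag (0.77, adjusted p = 0.0627) and with library sizes alone, where the value was 0.19 (adjusted p = 0.738). The Atf3 call ended without BWF1 female 1 or 3, or BALB/c female 1 or 3 (-2.24 to -1.68, adjusted p = 0.0717 to 0.117). It also ended with DESeq2 (-2.24, adjusted p = 0.187), limma-voom (-2.32, adjusted p = 0.0847), the file-name tag (-2.18, adjusted p = 0.108) and the replicate block (-2.17, adjusted p = 0.0567), and without BWF1 female 2 the value was -3.70 (adjusted p = 0.0151). The medians of the list were -0.093, -0.0078 and 0.22 on the log2 scale in the 3 comparisons.

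Start codon selection depends on eIF1 and eIF1A, and of their 4 tested genes 0 were called, with 0 at an unadjusted p under 0.05. Eif1 stood at 79.4, 127 and 69.8 CPM in BWF1 females, 119.6, 115 and 76.0 CPM in BWF1 males and 134, 94.6 and 93.2 CPM in BALB/c females. The groups overlapped in all comparisons, with log2 fold changes from -0.21 to -0.066. Eif1ad, an eIF1A-like gene, had the lowest p of the role against BALB/c females and stood at 37.5, 17.7 and 18.5 CPM in BWF1 females, 21.6, 26.7 and 21.0 CPM in BWF1 males and 17.2, 21.0 and 17.8 CPM in BALB/c females. BWF1 female 1 was the highest library, the other females overlapped BALB/c, and the log2 fold change against BALB/c females was 0.37 ± 0.31 (adjusted p = 0.597). Eif1a and Eif1b gave -0.29 and 0.26 for females against males.

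For the joining of ribosomal subunits, Eif5, the GTPase activator of eIF2, stood at 185, 174 and 125 CPM in BWF1 females, 149, 136 and 116 CPM in BWF1 males and 175, 160.3 and 162 CPM in BALB/c females. The male libraries lay below all BALB/c libraries, and the BWF1 females spanned both (-0.31 ± 0.16 for males against BALB/c, adjusted p = 0.361); 1 small nucleolar RNA gene lies in its exons. Eif5b, the GTPase that joins the subunits, was at 81.6, 106 and 82.1 CPM in BWF1 females, 86.3, 71.8 and 66.0 CPM in BWF1 males and 69.0, 55.9 and 63.4 CPM in BALB/c females. Its BWF1 female libraries were above all BALB/c libraries, with 0.52 ± 0.19 (adjusted p = 0.127), and overlapped the males. Eif6, which keeps the large subunit free, gave 0.29, 0.16 and -0.12 in the 3 comparisons. Eif5a, whose hypusine-bearing product relieves stalled ribosomes, stood at 216, 234 and 216 CPM in BWF1 females, 233, 193 and 209.9 CPM in BWF1 males and 187, 172 and 198 CPM in BALB/c females. Its groups differed little, with log2 fold changes of 0.068 ± 0.15, 0.26 ± 0.15 and 0.19 ± 0.15. Its paralog Eif5a2 had 56 reads in all and was not tested.

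Among the elongation factors, Eef1g was higher in both BWF1 groups than in BALB/c females. The gene (ENSMUSG00000071644, mm10 chromosome 19, 8967041 to 8978479, plus strand) encodes the gamma subunit of the exchange complex that reloads eEF1A. It stood at 240.4, 232 and 201 CPM in BWF1 females, 247, 196 and 195 CPM in BWF1 males and 147, 117 and 135 CPM in BALB/c females. All 6 BWF1 libraries, of both sexes, were above all 3 BALB/c libraries, and BWF1 females and males overlapped. The group means were 225 ± 20.7, 213 ± 29.8 and 133 ± 15.3 CPM (SD, n = 3). The log2 fold change was 0.76 ± 0.16 for BWF1 against BALB/c females (adjusted p = 0.00450), 0.67 ± 0.16 for males against BALB/c females (adjusted p = 0.0121) and 0.083 ± 0.16 for females against males (adjusted p = 0.852). Both calls ended without BALB/c female 2, at 0.67 (adjusted p = 0.0520) and 0.59 (adjusted p = 0.117). With the file-name tag as a covariate, which all BALB/c libraries share, the values were 0.72 (adjusted p = 0.0405) and 0.64 (adjusted p = 0.0977). Of its 50-base exon windows, 44.2% also occur in other genes, most in Gm4366, and of those of Eef1a1 40.4%, so reads from those windows cannot be given to 1 gene.

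Eef1a1 stood at 3438, 3335 and 2934 CPM in BWF1 females, 4950.5, 4365 and 4272 CPM in BWF1 males and 4457, 3505 and 4232 CPM in BALB/c females. The BWF1 females lay below all males and, narrowly, below all BALB/c libraries, with -0.49 ± 0.16 against males (adjusted p = 0.117) and -0.33 ± 0.16 against BALB/c females (adjusted p = 0.297). The former passed with DESeq2 (adjusted p = 0.00299) and limma-voom (adjusted p = 0.00950). Within each library, the log2 ratio of Eef1g to Eef1a1 reads was -3.85 ± 0.015 (SD, n = 3) in BWF1 females, -4.42 ± 0.082 in males and -4.93 ± 0.035 in BALB/c females. No 2 groups overlapped in this ratio, and the spread within each was small beside the gaps (exact permutation p = 0.1, the smallest possible, in each comparison). Eef1d, the delta subunit, stood at 92.6, 92.0 and 105 CPM in BWF1 females, 126, 102 and 89.1 CPM in BWF1 males and 69.7, 68.3 and 73.4 CPM in BALB/c females. Both BWF1 groups lay above all BALB/c libraries, with 0.45 ± 0.18 for females (adjusted p = 0.172) and 0.57 ± 0.17 for males (adjusted p = 0.0655); limma-voom called the latter. Eef1b2, the beta subunit, gave 0.26 ± 0.20 and 0.37 ± 0.19 in the same comparisons, and Eef1e1, a partner of the tRNA synthetase complex, -0.17 ± 0.43 and -0.32 ± 0.38; neither passed in any comparison.

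**Figure D5:**
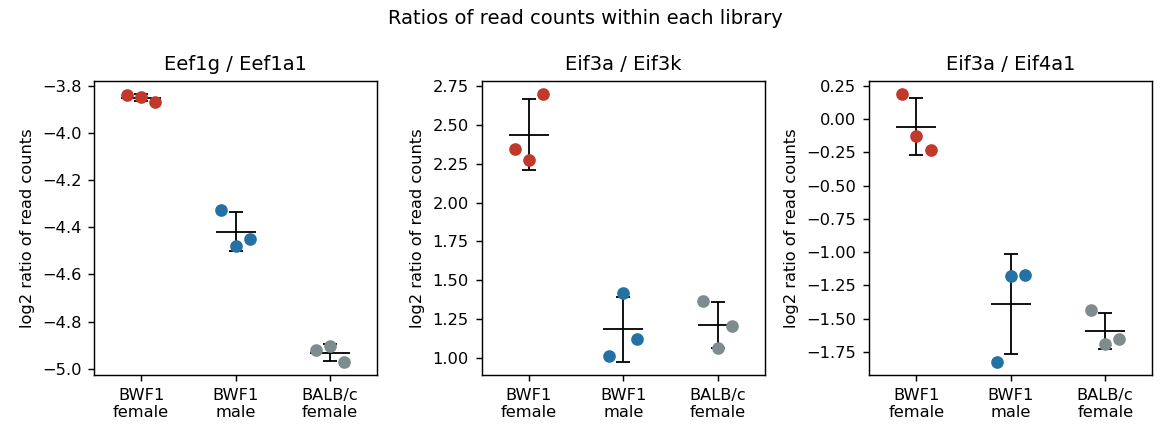
Log2 ratio of read counts within each library (points) with mean ± SD (bars, n = 3) for 3 pairs of members chosen after their values were seen. The Eef1g to Eef1a1 ratio separates all 3 groups, and both Eif3a ratios set the BWF1 females above the other 6 libraries.

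The translocase and its kinase held 0 calls by edgeR, DESeq2 or limma-voom. Of the pair, 2, 1 and 0 stood at an unadjusted p under 0.05 in the 3 comparisons, against 16.4%, 16.9% and 16.3% of all tested genes. Eef2 stood at 2344, 1988 and 1827 CPM in BWF1 females, 2701, 2466 and 2721 CPM in BWF1 males and 2114, 2276 and 2508 CPM in BALB/c females. The BWF1 females lay below all males and overlapped BALB/c, with -0.36 ± 0.15 against males (adjusted p = 0.223). Eef2k, the kinase that blocks eEF2, had few reads in BWF1 females (11, 4 and 5) and stood at 24.3, 6.45 and 10.3 CPM in BWF1 females, 25.5, 25.6 and 18.9 CPM in BWF1 males and 21.6, 27.6 and 23.8 CPM in BALB/c females. BWF1 females 2 and 3 were the lowest libraries while female 1 lay among the others, and the differences did not pass (-0.78 ± 0.36 against males, adjusted p = 0.275; -0.88 ± 0.36 against BALB/c, adjusted p = 0.193). Without BWF1 female 1 both passed, at -1.48 (adjusted p = 0.0457) and -1.56 (adjusted p = 0.0228). Without BWF1 female 2 they were -0.42 (adjusted p = 0.607) and -0.50 (adjusted p = 0.508). Of the 5 methyltransferases of eEF1A and eEF2, 1 was tested. Eef2kmt was at 17.6, 11.3 and 10.3 CPM in BWF1 females, 9.81, 10.3 and 9.58 CPM in BWF1 males and 10.1, 12.5 and 5.95 CPM in BALB/c females and gave 0.39 ± 0.41 for females against males. Eef1akmt1 stood at 6.62, 1.61 and 4.11 CPM in BWF1 females, 9.81, 3.08 and 3.33 CPM in BWF1 males and 3.59, 5.26 and 2.97 CPM in BALB/c females from 46 reads, and Eef1akmt2, Eef1akmt3 and Eef1akmt4 had 58, 9 and 21 reads in all.

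The neighbouring steps of protein synthesis gave 0 calls by edgeR, DESeq2 or limma-voom in any comparison. An unadjusted p under 0.05 was reached by 16.4%, 16.9% and 16.3% of all tested genes in the 3 comparisons. Of 9 tested genes for termination, recycling and the modification of eIF5A and eEF2, 0, 1 and 1 had an unadjusted p under 0.05 in the 3 comparisons, and the medians were -0.15, -0.16 and 0.064 on the log2 scale. Hbs1l, which rescues stalled ribosomes, had the lowest p for females against males and for BWF1 against BALB/c females (adjusted p = 0.448 and 0.0997), and Gspt1, the release factor eRF3, for males against BALB/c females (adjusted p = 0.228). Of 21 tested genes of cytosolic aminoacyl-tRNA synthetases, which charge tRNAs, 2, 2 and 1 reached an unadjusted p under 0.05, with medians of 0.07, 0.19 and 0.12 on the log2 scale. Their lowest p belonged to Tars, Iars and Dars (adjusted p = 0.147, 0.163 and 0.135). Of 8 tested mitochondrial translation factors 0, 0 and 1 did so (medians 0.10, 0.11 and -0.075), with Tsfm lowest for the comparisons of BWF1 females (adjusted p = 0.383 and 0.492) and Mtif2 for males against BALB/c females (adjusted p = 0.264).

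Cell type markers moved with the groups beside these values. The 15 T cell markers summed to 548 to 684 CPM in BWF1 females, 947 to 1096 CPM in males and 620 to 875 CPM in BALB/c females, and 9 of them fell and 0 rose in females against males, where 1.23% of all tested genes were called lower and 0.959% higher. The 10 natural killer and cytotoxic markers summed to 121 to 131, 347 to 409 and 187 to 258 CPM (5 of 9 tested fell in females against males), and the 15 macrophage and gate markers to 283 to 318, 582 to 816 and 459 to 508 CPM (6 of 12 tested fell in females against males). The 22 proliferation genes went the other way, at 913 to 1244, 519 to 751 and 727 to 1013 CPM, and 4 of 20 tested rose in females against males. The 12 B cell markers summed to 2737 to 2965, 2730 to 3473 and 3784 to 3833 CPM, and the 10 plasma cell markers to 604 to 882, 1314 to 2165 and 715 to 852 CPM. Between BWF1 and BALB/c females, 1.79% of all tested genes were called higher and 2.03% lower. There 4 of 12 B cell, 2 of 15 T cell, 2 of 9 natural killer and 2 of 12 macrophage markers fell. So did 2 of 8 neutrophil and 1 of 12 erythroid markers, while 2 of 20 proliferation, 1 of 8 plasma cell and 1 of 8 neutrophil markers rose. The 13 erythroid markers counted summed to 891 to 2790, 218 to 1451 and 1563 to 4586 CPM. In females against males 1 of 12 tested erythroid markers rose (Epb42), and 11 had a log2 fold change above 0 (median 1.76). There 1 of 8 tested plasma cell markers fell (Jchain), 1 of 3 tested stromal markers rose (Col1a2), and 0 B cell, neutrophil or dendritic markers were called. For males against BALB/c females, where Eef1g was called and 1.67% of all tested genes were called higher and 1.85% lower, 9 of 12 tested erythroid markers fell (median -2.49). In the same comparison 5 of 8 tested plasma cell, 6 of 12 macrophage, 4 of 9 natural killer and 2 of 15 T cell markers rose, and 1 of 12 B cell markers fell. So did 1 of 3 stromal and 1 of 20 proliferation markers, while 1 of 8 neutrophil and 1 of 20 proliferation markers rose. The 11 neutrophil markers summed to 197 to 448, 315 to 751 and 336 to 433 CPM, the 8 dendritic markers to 211 to 247, 196 to 246 and 218 to 236 CPM, and the 7 stromal markers to 132 to 162, 106 to 146 and 147 to 172 CPM. In these lists no marker had 0 reads in a group, save the globin gene Hba-a2 in both BWF1 groups. The part of these markers in the values of Eif3a, Eif4a1 and Eef1g was not tested.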

How the data were processed

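Spleen RNA of 9 mice was sequenced, and the authors deposited 1 table of read counts per gene, not normalized, with 5 summary lines of the kind HTSeq writes, per the file headers. The submitters' processing notes list STAR 2.6, FastQC 0.10.1 and mm10; the annotation release and strand setting are not given in the sources used here. Gene counts were 1.29% to 2.82% of all counted alignments; the summary lines were left out of library sizes. Gene names, positions and lengths came from GENCODE M21, which held 21939 of the 21965 identifiers, and promoters from RefSeq GRCm38.p6.

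Counts were filtered with filterByExpr (minimum count 10; 7719 genes kept), scaled by TMM and tested with the edgeR 4.0.16 quasi-likelihood test (R 4.3.3) in 1 fit of the 3 groups, with a Benjamini-Hochberg adjusted p threshold of 0.05. SEs were obtained by dividing each absolute log2 fold change by the root of its F statistic. Single values were compared by two-sided exact permutation tests (scipy 1.17.1). Alternatives used DESeq2 1.42.0, limma 3.58.1 (voom) and others named in the closing section. The fit was also run on data simulated with the spread estimated from these libraries. No result is drawn from that run, and it does not bear on the calls given here.

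Members, roles and lists were chosen with earlier results of these data known. Values in every library were to be given for called members and, in each role, for those with the highest level per length or the lowest p; of the lists, called genes, or else the gene with the lowest p, were named. Other members described are said to be chosen after their values were seen, or are given because every member is accounted for.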

Additional observations from a re-analysis of the deposited data

How the results depend on the processing

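Each comparison was fitted under 20 alternatives, 1 of them (the older edgeR quasi-likelihood fit) chosen after seeing the data. Library sizes alone shifted the median of all genes by 0.16, -0.29 and -0.44 on the log2 scale (females against males, BWF1 against BALB/c females, males against BALB/c females), called 0 members higher in each and 0, 0 and 1 lower, and called 59 and 130 of all genes in the first 2 comparisons; Eif3d turned to -0.10 for males against BALB/c females, and the cause was not tested.

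For females against males, all genes called numbered 304 without a filter, 110 with DESeq2 and 98 with only the 2 groups (169 in the report). Members called lower numbered 4 without a filter (adding Eef1a1, Eif4ebp1 and Eif4g2), 2 with DESeq2, limma-voom or robust dispersion (adding Eef1a1), and 0 with only the 2 groups. For BWF1 against BALB/c females, 154 genes were called with DESeq2 and 160 with the file-name tag (295 in the report), and 3 members were lower without a filter or with only the 2 groups (adding Eif4a2 and Eif4g2). Members higher there numbered 3 (adding Eif4h) without Lars2, with limma-voom, robust dispersion, only the 2 groups or the older fit. For males against BALB/c females, 433 genes were called without Lars2, 510 without a filter, 173 with DESeq2, 650 with limma-voom, 153 with the tag and 484 with the older fit (272 in the report). Members called higher there numbered 3 with limma-voom or the older fit (adding Eef1d and Eif4ebp2) and 0 with the tag, and 1 (Eif4a2) was lower without a filter.

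Without each library in turn, genes called ranged from 58 to 198, 184 to 370 and 119 to 393 in the 3 comparisons, members higher from 0 to 1, 1 to 3 and 0 to 2, and members lower from 0 to 1, 0 to 3 and 0 to 1. Same-numbered libraries showed no shared variation: of 9 such pairs 0 correlated above 0.1 (r from -0.0912 to 0.0589). Different-numbered pairs gave r from -0.118 to 0.141. This check cannot show whether libraries were paired by handling, which the labels do not give. With the replicate number as a block, 118, 255 and 240 genes were called, and members lower numbered 0, 2 and 0 and higher 1, 2 and 1; Eif4a1 then gave an adjusted p of 0.0618 against males. Depth limits the BWF1 female libraries most, with a median of 103 reads per tested member over the group, against 444 in males and 272 in BALB/c females.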
